A study of Rattus norvegicus with 6 samples.

Results

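The Slc25 genes encode the mitochondrial carrier family, the proteins that move metabolites across the inner mitochondrial membrane. Genes were taken as members where the symbol was Slc25a followed by a number, which gave 39 genes with 41 transcripts among 17051 genes in rat kidney. Of these, 35 reached 30 estimated reads in 1 rat or more and were tested, among 11553 tested genes. Kidney RNA was sequenced from 6 male Sprague Dawley rats, 1 library per rat. The AL group (rats 61, 71 and 88) ate normal chow ad libitum, and the HD group (rats 64, 67 and 69) received for a week the hyperammonemic diet, in which chow was enriched with an amino acid mixture modelled on haemoglobin. Both groups were of the same strain, and the labels give no age.

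Mitochondrial carriers are small proteins of the inner membrane, most of which exchange a solute of the matrix for one of the cytosol. In the kidney, the cells of the proximal tubule take up glutamine, break it down in mitochondria to release ammonia, and turn the carbon that remains into oxo acids that leave the matrix through these carriers. Other members supply ADP and phosphate to ATP synthase, bring glycine and iron to haem synthesis, or move ornithine and citrulline for the urea cycle.

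The libraries held between 12499945 and 30466461 estimated reads, a 2.44-fold range, with the 2 deepest libraries in the HD group (rats 67 and 69). Markers of the proximal tubule were abundant in each library, as a kidney sample requires, but their summed level was not equal between the diets. It lay between 3968 and 4414 TPM (a relative level that takes transcript length into account) in the AL rats. In the HD rats it lay between 4899 and 5875 TPM. Of the 7 tested markers, 3 (Slc34a1, Slc22a6 and Slc13a3) were higher in the HD group at an unadjusted edgeR *P* below 0.05, against 4.66% of all tested genes. The other tested markers had log2 fold changes (HD over AL) of 0.19 (Lrp2), 0.22 (Aqp1), 0.57 (Slc5a2) and -0.05 (Cubn). The markers of the thick ascending limb were at 3050 to 3580 TPM in AL rats and 2069 to 3548 TPM in HD rats, those of podocytes at 18.6 to 48.6 and 88.5 to 206 TPM, and those of leukocytes at 14.2 to 48.7 and 10.8 to 18.6 TPM. Of the 2 markers of the distal convoluted tubule, Pvalb had at most 2 counts in a library, so their sum rested on Slc12a3. It did not overlap between the diets, at 7.80 to 10.4 TPM in AL rats and 17.7 to 100 TPM in HD rats. Every HD rat lay above every AL rat in 7.25% of all tested genes. The markers of the collecting duct were at 1326 to 1720 and 1148 to 1414 TPM. Of the 4 tested, Aqp3 and Slc4a1 were lower in the HD group at an unadjusted edgeR *P* below 0.05, against 5.94% of all tested genes. The other tested markers of that list had log2 fold changes of -0.05 (Aqp2) and 0.29 (Atp6v1g3), so the list did not go 1 way. Those of endothelium were at 30.4 to 81.8 and 20.7 to 75.5 TPM. The brown adipocyte pair Ucp1 and Cidea was at 21.2, 12.7 and 9.72 TPM in rats 61, 71 and 88 and at 3.18, 72.4 and 102 TPM in rats 64, 67 and 69, so that 2 HD libraries stood apart. Spermatid markers were at 0 in every library. In whole kidney tissue, more cells of a type and more RNA per cell cannot be told apart, and the part that these marker differences have in the carrier values below was not tested.

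The sequences upstream of the carriers are shown first for the members on which the comparison turns: those with an unadjusted *P* below 0.05, and Slc25a25, the member with the largest fold change. They are the 250 bases before the annotated start in RefSeq, assembly GRCr8, read 5′ to 3′ along the strand of the gene. The table used had an entry for 29 of the 35 tested members, and Slc25a37 had none. The Slc25a15 stretch ends in a run of pyrimidines and cag, the letters usual before an internal exon, so its annotated start may not be where transcription begins. Capitals mark matches, on either strand, to 5 short sequences: the CCAAT box (CCAAT), the GC box (GGGCGG), the E-box (CACGTG), the core of the NRF1 site (TGCGCA) and the cyclic AMP response element, or CRE (TGACGTCA). None of these 5 letter strings contains another.
Slc25a1 (chr11:96559804-96560053, plus strand): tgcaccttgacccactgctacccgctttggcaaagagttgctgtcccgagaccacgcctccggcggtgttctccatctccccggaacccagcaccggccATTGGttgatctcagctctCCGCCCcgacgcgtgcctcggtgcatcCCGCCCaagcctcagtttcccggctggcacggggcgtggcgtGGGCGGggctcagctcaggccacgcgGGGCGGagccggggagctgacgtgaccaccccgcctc
Slc25a10 (chr10:106264146-106264395, plus strand): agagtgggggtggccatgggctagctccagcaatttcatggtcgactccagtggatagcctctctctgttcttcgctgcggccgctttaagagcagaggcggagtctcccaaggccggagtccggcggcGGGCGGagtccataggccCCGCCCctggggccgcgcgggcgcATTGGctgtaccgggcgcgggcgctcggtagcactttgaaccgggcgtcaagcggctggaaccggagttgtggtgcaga
Slc25a15 (chr16:76336620-76336869, plus strand): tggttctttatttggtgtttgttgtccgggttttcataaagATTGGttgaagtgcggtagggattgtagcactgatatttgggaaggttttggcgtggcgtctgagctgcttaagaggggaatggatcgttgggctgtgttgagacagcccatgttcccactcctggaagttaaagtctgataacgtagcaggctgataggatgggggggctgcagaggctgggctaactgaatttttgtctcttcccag
Slc25a23 (chr9:1985366-1985615, minus strand): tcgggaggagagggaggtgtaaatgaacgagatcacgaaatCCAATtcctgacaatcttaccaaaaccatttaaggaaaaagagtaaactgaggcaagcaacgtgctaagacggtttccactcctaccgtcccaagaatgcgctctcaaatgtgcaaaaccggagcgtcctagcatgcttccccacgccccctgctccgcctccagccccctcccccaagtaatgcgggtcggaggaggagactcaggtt
Slc25a25 (chr3:36116582-36116831, minus strand): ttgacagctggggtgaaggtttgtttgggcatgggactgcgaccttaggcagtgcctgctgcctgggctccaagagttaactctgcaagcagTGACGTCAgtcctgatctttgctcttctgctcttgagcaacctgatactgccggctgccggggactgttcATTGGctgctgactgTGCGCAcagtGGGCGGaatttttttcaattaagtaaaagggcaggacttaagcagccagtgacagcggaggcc

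The Slc25a1 stretch held 4 GC boxes and 1 CCAAT box, and that of Slc25a10 held 2 GC boxes and 1 CCAAT box. Slc25a23 had 1 CCAAT box and none of the other strings, as did the window of Slc25a15, whose start is in doubt. The Slc25a25 stretch held the CRE, a CCAAT box, the NRF1 core and a GC box, in that order towards the start. Across the 29 members, a CCAAT box was found in 18 (62.1%, against 34% of 33469 rat promoters) and a GC box in 20 (69%, against 30.5%). The CRE was found in 2 (Slc25a25 and Slc25a33, 6.9% against 1.59%), the E-box in 2 (6.9% against 5.59%) and the NRF1 core in 2 (6.9% against 6.14%). The median GC content was 59.6% in the members and 51.2% in all promoters, which bears on how often strings of G and C occur. A match describes the letters of this window only.

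Carrier transcripts made up a small and uneven part of the kidney transcriptome. The family summed to between 0.520% and 0.591% of all TPM per rat. The median tested member was at 35.6 TPM, against 16.6 TPM for all tested genes. Slc25a5, the ADP/ATP translocase 2, was the most abundant at a mean of 1728 TPM and held 31.8% of the family's TPM. Slc25a3, the phosphate carrier, followed with 772 TPM, Slc25a4, the ADP/ATP translocase 1, with 604 TPM, Slc25a39, a carrier of glutathione, with 420 TPM, and Slc25a10, the dicarboxylate carrier, with 354 TPM. These 5 genes held 71.3% of the family's TPM. Of the tested members, 10 had a mean of at least 100 TPM, 16 lay from 10 to 100 TPM and 9 lay below 10 TPM. The 4 members that were not tested had at most 5 counts in a library for Slc25a18 (glutamate carrier 2), 2 for Slc25a41, 6 for Slc25a47 and 1 for Slc25a54. At this depth the level of these 4 could not be compared between diets. Slc25a12 and Slc25a13, the aspartate/glutamate carriers, and the pyrimidine carrier Slc25a36 were not analysed here.

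**Figure D1:**
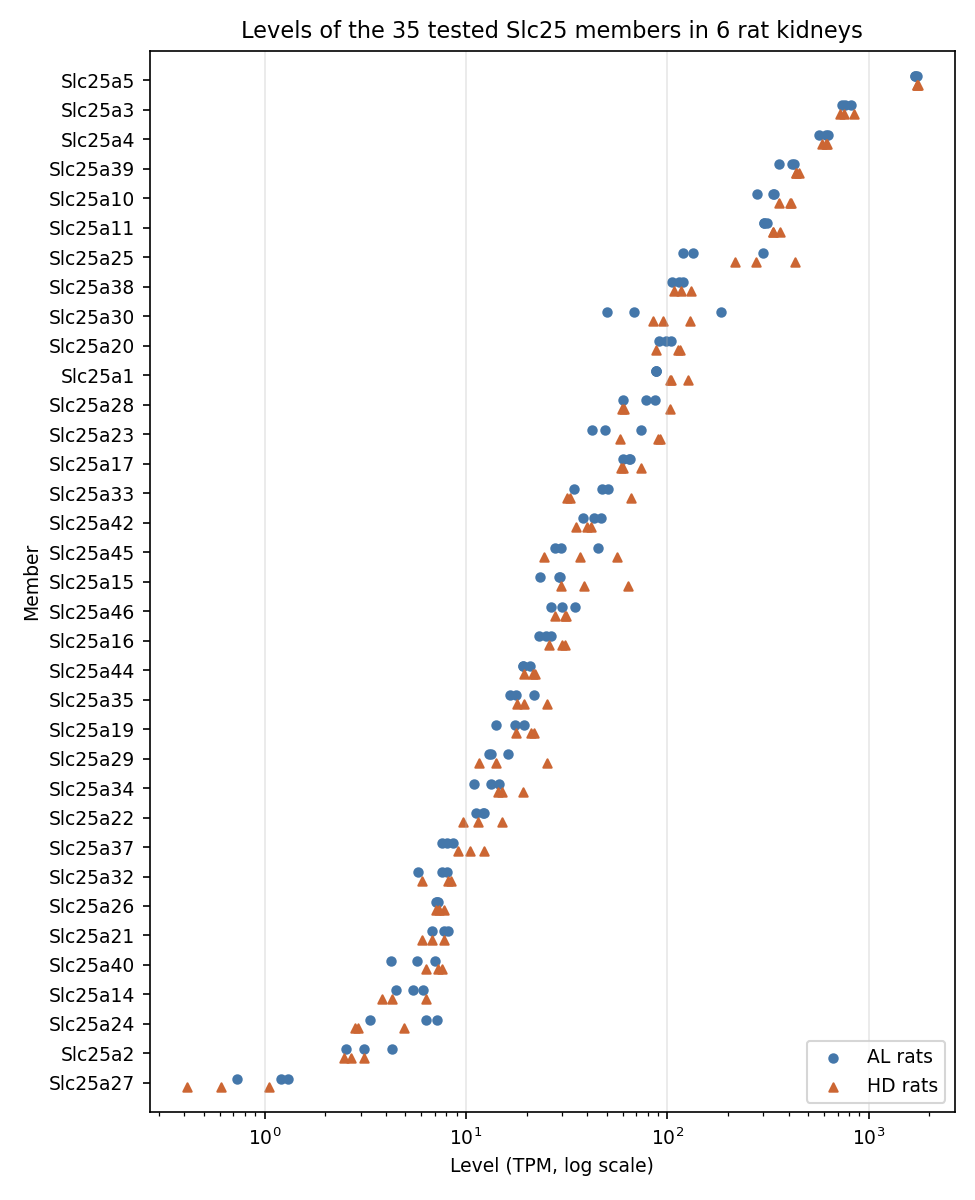
Level of each tested member in TPM (log axis) in each rat, ordered by its mean, with circles for the 3 AL rats and triangles for the 3 HD rats. Levels ran from 0.885 TPM for Slc25a27 to 1728 TPM for Slc25a5, and for most members the rats of both diets overlapped.

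Some members that lie beside each other in the genome differed widely in level, which shows in their counts summed over the 6 rats. On chromosome 9 of rn5, Slc25a23 had 6757 counts and its neighbour Slc25a41, 2881 bases away and of the same ATP-Mg/phosphate group, had 3. On chromosome 2, Slc25a24 had 1107 counts and Slc25a54 had 1. On chromosome 6, Slc25a29 had 2145 counts and Slc25a47 had 17. For Slc25a3, which had 2 transcripts at chr7:31904033-31911496 (rn5), 1 of them took between 98.8% and 99.3% of the counts in every rat. The pair Slc25a4 and Slc25a5 encode closely similar proteins. How far their counts depend on the division of shared reads by RSEM was not tested.

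The comparison of the diets asked which carriers differed in the kidneys of rats given the amino acid diet. In the quasi-likelihood test of edgeR, adjusted over all tested genes by the Benjamini-Hochberg method, none of the 35 members had an adjusted *P* of 0.05 or below (0% of all tested genes did), and the members' adjusted values ran from 0.398 to 0.990. DESeq2 called no member either, with a smallest adjusted *P* of 0.115, while it called 1.58% of all genes. At an unadjusted *P* below 0.05, edgeR marked 5 members as higher in the HD group (14.3%, against 4.66% of all tested genes) and 0 as lower (against 5.94%). These were Slc25a1, Slc25a10, Slc25a15, Slc25a23 and Slc25a37. DESeq2 also gave 5 members an unadjusted value below 0.05, all higher in the HD group (14.3%, against 4.7% of all tested genes, and 0 lower, against 6.77%), and 4 were shared. With TMM scaling, every HD rat lay above every AL rat in 5 members (14.3%, against 7.25% of all genes) and below in 0 (against 7.01%). The 5 were Slc25a1, Slc25a10, Slc25a15, Slc25a37 and Slc25a40. For such a member the exact two-sided permutation *P* was 0.1, the smallest that 3 rats against 3 allow.

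The number of members at an unadjusted *P* below 0.05 changed when single rats were left out. It was 3 without rat 71, 2 without rat 88, 1 without rat 64 and 3 without rat 67. It stayed at 5 without rat 61 or without rat 69, although only 2 of those 5 were shared with the 5 named above in each of these fits. Both of these fits also marked Slc25a24, which was lower in the HD group. Slc25a1 was the only member below 0.05 in each of the 14 other settings tried, with unadjusted values between 0.0036 and 0.033. The share of all tested genes at this level without a rat is not given here, so the change in number cannot be set against it.

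The log2 fold changes of the family leaned towards the HD group, with 29 members above 0 and 6 below when libraries were scaled by TMM, and 24 above and 11 below when they were scaled by library size alone. The share above 0 was 82.9% under TMM, against 51.3% of all tested genes. The family's median log2 fold change was 0.14, against 0.01 for all genes, and with library size alone it was 0.06, against -0.07. The members are not replicates and these values carry no test. Single members ranged from -0.58 for Slc25a24 to 0.80 for Slc25a25.

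**Figure D2:**
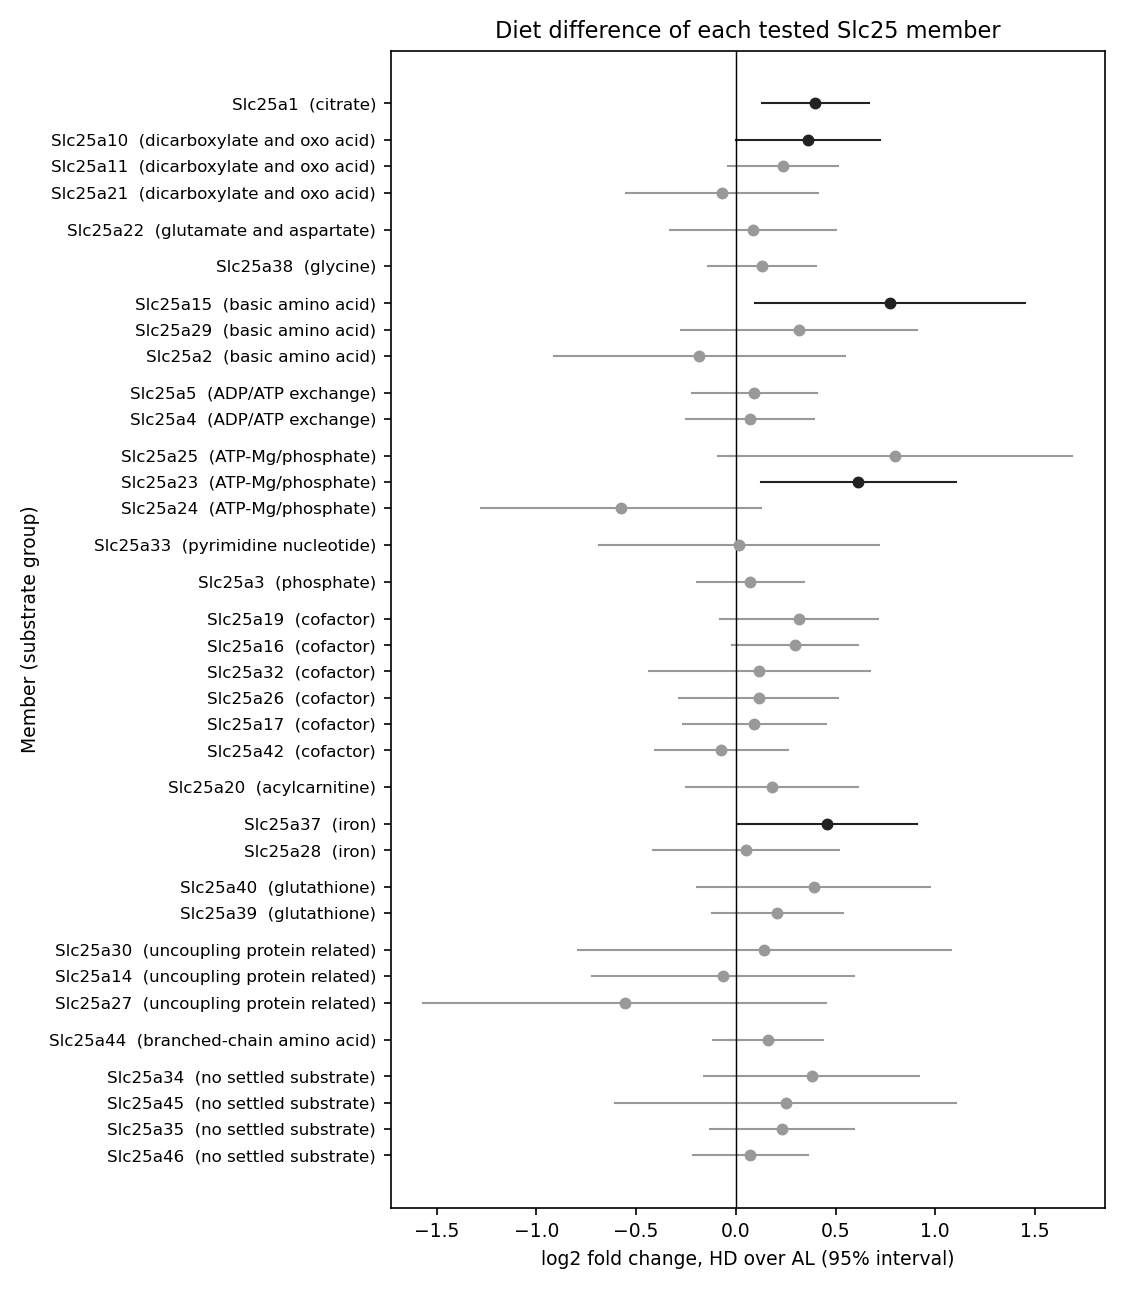
Log2 fold change of each tested member (HD over AL, edgeR, TMM scaling) with its 95% interval, not adjusted for the number of genes, grouped by substrate. Black marks the 5 members with an unadjusted *P* below 0.05, and 29 of the 35 points lie to the right of 0 (24 with library size alone).

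The citrate carrier had the smallest unadjusted *P* of the family. Slc25a1 exchanges citrate of the matrix for malate and so feeds citrate to the cytosol. It lies at chr11:90295813-90298829 (rn5), with 9 exons. Its level was 98.96, 82.8 and 88.1 normalized CPM (the count relative to the library total after TMM scaling) in AL rats 61, 71 and 88, and 113, 116 and 127 in HD rats 64, 67 and 69. All HD rats lay above all AL rats, with rat 64 the lowest of them. The fold change was 1.32, a log2 value of 0.40 with SE 0.11 (95% interval 0.13 to 0.67), with an unadjusted *P* of 0.0089 and an edgeR adjusted *P* of 0.398. The log2 value lay between 0.33 and 0.47 over the 14 settings.

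Slc25a10 exchanges malate or succinate for phosphate and lies at chr10:109258950-109266411 (rn5). It was at 440, 308 and 397 CPM in rats 61, 71 and 88 and at 522, 466 and 485 CPM in rats 64, 67 and 69. The groups did not overlap, but the gap between the lowest HD rat and the highest AL rat was small beside the spread among the AL rats. The fold change was 1.29 (1.00 to 1.65), with an unadjusted *P* of 0.048 and an edgeR adjusted *P* of 0.468. Without rat 71 its log2 value moved from 0.36 to 0.23. Slc25a11, which exchanges oxoglutarate for malate in the malate-aspartate shuttle, had a log2 fold change of 0.24, and Slc25a21, the oxoadipate carrier, one of -0.07, whose sign turned without rat 61 or rat 69. Slc25a21 shares 72 exonic bases with Pax9 on the other strand, so without strand information its value is uncertain. The summed level of these 3 carriers was 631 ± 26.9 TPM in the AL group and 742 ± 39.9 TPM in the HD group (SD, n = 3 each).

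Glutamate had 1 tested carrier. Slc25a22, which brings glutamate into the matrix together with a proton, was at 19.1, 15.7 and 15.7 CPM in the AL rats and at 14.8, 17.6 and 21.1 CPM in the HD rats. The groups overlapped fully, with a fold change of 1.06 (0.796 to 1.42), and the sign of the difference turned when rat 69 was left out. The gene is listed at 2 places on chromosome 1 of rn5 (chr1:220890711-220898559 and chr1:221327500-221335348) with its counts divided equally, and they were summed.

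Glycine enters mitochondria for haem synthesis through Slc25a38, at chr8:127991043-128003671 (rn5). It was at 130, 114 and 108 CPM in AL rats 61, 71 and 88 and at 120, 132 and 133 CPM in HD rats 64, 67 and 69. AL rat 61 lay above HD rat 64, and the groups overlapped. The log2 fold change was 0.13 with an interval of -0.14 to 0.40, so that these data leave room for a difference of either sign within those bounds.

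Basic amino acids are carried by 3 tested members. Slc25a15 exchanges ornithine for citrulline across the inner membrane, as the urea cycle needs, and lies at chr16:74169024-74189302 (rn5). The AL rats 61, 71 and 88 were close together at 16.5, 17.4 and 18.5 CPM, while the HD rats 64, 67 and 69 spread over 44.1, 27.1 and 18.9 CPM. Rat 69 lay just above the highest AL rat, and rat 64 was the highest. The fold change was 1.71 (1.07 to 2.73), with an unadjusted *P* of 0.030 and an edgeR adjusted *P* of 0.425. The log2 value of 0.77 was 0.39 without rat 64 and 1.03 without rat 69. The others, Slc25a29 and the low Slc25a2, had log2 fold changes of 0.32 and -0.18, and that of Slc25a29 was -0.02 without rat 69.

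**Figure D3:**
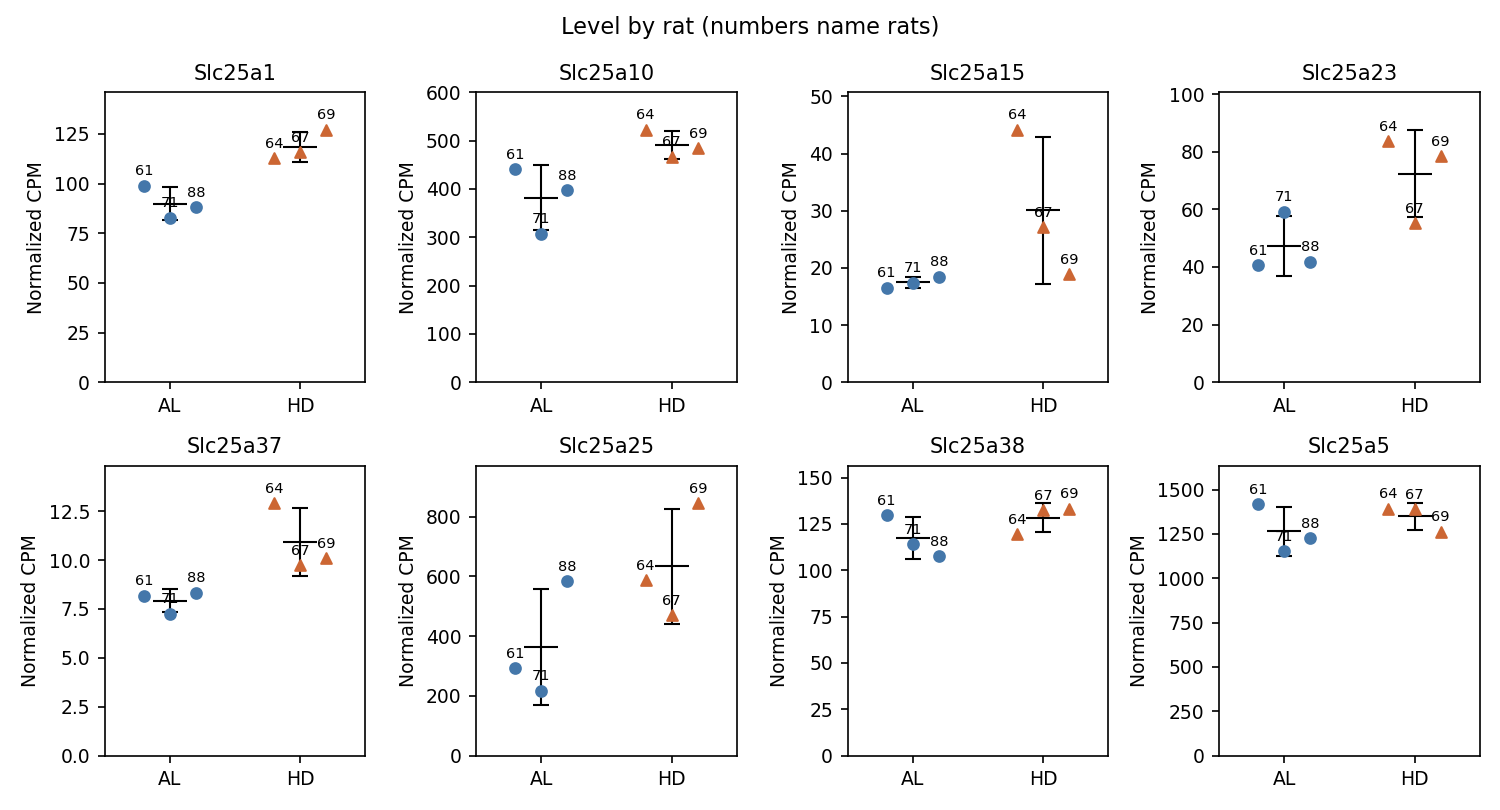
Normalized CPM of 8 members in each rat (circles AL, triangles HD, numbers naming the rats), with the mean as a line and bars of 1 SD, each vertical axis starting at 0. The rats of the 2 diets do not overlap for Slc25a1, Slc25a10, Slc25a15 and Slc25a37, whereas Slc25a23, Slc25a25, Slc25a38 and Slc25a5 overlap.

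Nucleotides are moved by several groups of carriers, which differed in their values. The ADP/ATP translocases export ATP in exchange for ADP. Slc25a5 was at 1417, 1152 and 1225 CPM in rats 61, 71 and 88 and at 1392, 1390 and 1263 CPM in rats 64, 67 and 69. Slc25a4 was at 551, 449 and 441 CPM in the AL rats and at 528, 532 and 457 CPM in the HD rats. Both overlapped between diets, with fold changes of 1.07 (0.858 to 1.32) for Slc25a5 and 1.05 (0.842 to 1.31) for Slc25a4, and the sign for Slc25a4 turned with library size alone. Their summed level was 2317 ± 58.2 TPM in the AL group and 2349 ± 27.3 TPM in the HD group (SD, n = 3 each).

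The ATP-Mg/phosphate carriers exchange ATP bound to magnesium for phosphate and so set the adenine nucleotide content of the matrix, and their activity is raised by calcium. Slc25a23, at chr9:8988707-9002612 (rn5), was at 40.6, 59.3 and 41.8 CPM in rats 61, 71 and 88 and at 83.6, 55.1 and 78.6 CPM in rats 64, 67 and 69. AL rat 71 lay above HD rat 67, so the groups overlapped by 1 rat on each side. The fold change was 1.53 (1.09 to 2.15), with an unadjusted *P* of 0.020 and an edgeR adjusted *P* of 0.406.

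Slc25a25, at chr3:16791266-16801399 (rn5), had the largest fold change of the family and a wide spread. It was at 292, 218 and 584 CPM in rats 61, 71 and 88 and at 588, 469 and 844 CPM in rats 64, 67 and 69. AL rat 88 lay far above the other AL rats and above HD rat 67, a 2.68-fold range within the AL group. The fold change was 1.74 (0.939 to 3.22, unadjusted *P* of 0.072), and the log2 value of 0.80 was 1.32 without rat 88 and 0.53 without rat 71.

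The third tested member of the group, Slc25a24, pointed the other way at a low level. It was at 8.02, 12.7 and 15.4 CPM in the AL rats and at 6.79, 6.70 and 10.6 CPM in the HD rats, with overlap and a fold change of 0.670 (0.412 to 1.09). The summed level of the ATP-Mg/phosphate carriers was 245 ± 96.3 TPM in the AL group and 392 ± 127 TPM in the HD group (SD, n = 3 each), a difference within the spread of the rats. The pyrimidine carrier Slc25a33 was at 47.7, 27.2 and 39.8 CPM in the AL rats and at 30.1, 29.6 and 55.8 CPM in the HD rats. Its fold change was 1.01 (0.622 to 1.65), with a sign that turned under several settings.

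Phosphate for ATP synthesis enters through Slc25a3, which was at 696, 623 and 602 CPM in the AL rats and at 675, 652 and 693 CPM in the HD rats. The fold change was 1.05 (0.872 to 1.27), with a sign that turned with library size alone. The glutathione carrier Slc25a39 was at 419, 342 and 315 CPM in the AL rats and at 435, 425 and 383 CPM in the HD rats, with a fold change of 1.16 (0.921 to 1.45). Its close relative Slc25a40, though low, had no overlap, with 5.24, 5.32 and 3.44 CPM in AL rats and 6.45, 5.75 and 6.17 CPM in HD rats, and an unadjusted edgeR *P* of 0.160.

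Iron enters mitochondria through the mitoferrins. Slc25a37, or mitoferrin 1, the form known from the making of red blood cells, lies at chr15:54858326-54898186 (rn5). It was at 8.18, 7.26 and 8.34 CPM in rats 61, 71 and 88 and at 12.9, 9.74 and 10.1 CPM in rats 64, 67 and 69. All HD rats lay above all AL rats, with a fold change of 1.37 (1.01 to 1.88), an unadjusted *P* of 0.046 and an edgeR adjusted *P* of 0.466. Slc25a28, or mitoferrin 2, the form of most tissues, had a log2 fold change of 0.05, with a sign that turned under several settings.

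Among the remaining members, the 6 tested cofactor carriers had log2 fold changes of which 5 lay above 0, with a median of 0.12, and the 4 tested members without a settled substrate lay above 0 with a median of 0.24. Slc25a20, the carnitine/acylcarnitine carrier of fatty acid oxidation, had a log2 fold change of 0.18, and Slc25a44, which carries branched-chain amino acids, one of 0.16. Of the members related to uncoupling proteins, Slc25a14 and Slc25a27 had log2 fold changes of -0.06 and -0.56, and the sign for Slc25a14 turned without rat 88, 64 or 69. Slc25a35 shares 35 exonic bases with Rangrf on the other strand and is uncertain for that reason. Slc25a30, the kidney mitochondrial carrier protein 1, is named here after its values were seen, for its spread among the AL rats. It was at 58.0, 177 and 70.3 CPM in rats 61, 71 and 88 and at 107, 96.8 and 134 CPM in rats 64, 67 and 69. Rat 71 was the highest of all, and the log2 fold change of 0.14 ran from -0.14 to 0.81 when single rats were left out.

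Summed over its members, the family was at 5204, 5303 and 5202 TPM in rats 61, 71 and 88 and at 5681, 5353 and 5907 TPM in rats 64, 67 and 69. The means were 5236 ± 57.8 TPM in the AL group and 5647 ± 279 TPM in the HD group (SD, n = 3 each), and the groups did not overlap, although rat 67 lay close to rat 71. Of the difference of 411 TPM, Slc25a25 made up 124 TPM and Slc25a10 made up 74.5 TPM. Without Slc25a25 the sums were 5070, 5183 and 4902 TPM in the AL rats and 5405, 5136 and 5475 TPM in the HD rats, and the groups overlapped. Slc25a5, the most abundant member, added 30.4 TPM. As given above, the summed level of the proximal tubule markers was also higher in all HD rats than in all AL rats. This did not hold for each marker, and its part in the family sum was not tested.

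**Figure D4:**
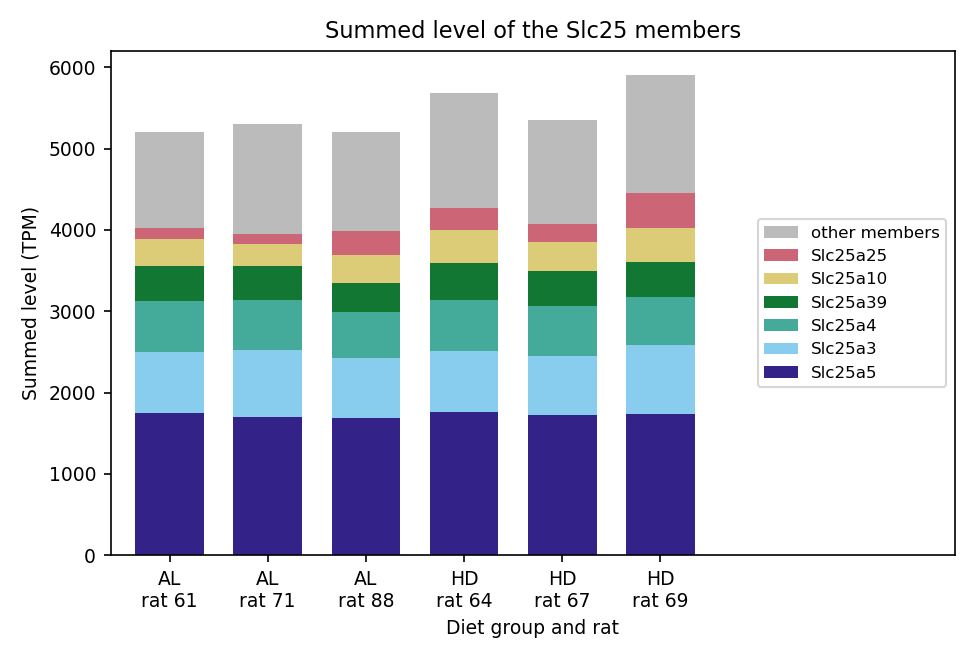
Summed level of the Slc25 members in TPM in each rat, stacked by member with the 6 named genes below and the other members in grey, from 0. The HD bars end between 5353 and 5907 TPM and the AL bars between 5202 and 5303 TPM, with the Slc25a5 block nearly equal in all rats.

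Genes that work beside the carriers gave the counts below. For comparison, 51.3% of all tested genes had a log2 fold change above 0, with a median of 0.01. At an unadjusted edgeR *P* below 0.05, 4.66% of all tested genes were higher in the HD group and 5.94% were lower. Of 11 tested enzymes of citrate export and the malate-aspartate shuttle, 10 had a log2 fold change above 0, with a median of 0.20, and Cs, Acly and Ogdh (0.26, 0.58 and 0.47) were among those higher in the HD group at an unadjusted *P* below 0.05. Acly splits the citrate that Slc25a1 exports. Of 11 glutamine and glutamate enzymes, 10 had a log2 fold change above 0, with a median of 0.24, and Oat was higher at that level (0.38). Of 16 glycine and haem enzymes, 4 were higher at that level (Shmt2, Gldc, Amt and Gatm) and Cpox was lower, with a median of 0.28. None of these genes had an edgeR adjusted *P* of 0.05 or below, while DESeq2 called Gatm and Cpox after adjustment.

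Mitochondrial transport proteins of other families, 20 in number, had 18 with a log2 fold change above 0 and a median of 0.20, and Letm1, Sfxn1, Sfxn5 and Abcb8 were among those higher at an unadjusted *P* below 0.05. Among 17 genes that track mitochondrial mass and biogenesis, Sdha and Ndufs1 were higher at that level, 0 were lower and the median was 0.16, close to the carriers' 0.14. The 10 genes of the carnitine system and the 15 of ATP synthase and its phosphate users had 0 at that level, with medians of 0.14 and 0.03. The number of genes below 0.05 in these lists also changed when single rats were left out. For mitochondrial mass it was 0 without rat 71, 88 or 64 and 1 without rat 69, and for the transport proteins of other families it was 0 without rat 88 or 64 and 1 without rat 69. For the enzymes of citrate export it was 1 without rat 88 or 64 and 2 without rat 61, 71 or 69, and for those of glycine and haem it was 3 in place of 5 without rat 64. In the carnitine list it was 3 without rat 69, and in the ATP synthase list 2 without rat 61. For these lists too, the share of all tested genes without a rat is not given here.

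Ucp1, Ucp2, Ucp3, Mtch1 and Mtch2 are relatives of the family with names outside the Slc25a pattern. The uncoupling proteins lower the proton gradient, and Ucp1 does so in brown fat to make heat. Ucp1 was at 4.69, 0.166 and 0.397 CPM in rats 61, 71 and 88 and at 0.340, 35.7 and 46.8 CPM in rats 64, 67 and 69. Ucp3 was at 0, 0 and 0.132 CPM in the AL rats and at 0, 1.65 and 2.14 CPM in the HD rats. Both genes were high in HD rats 67 and 69, while HD rat 64 lay within the range of the AL rats. The other brown adipocyte marker, Cidea, was at 5.88, 3.94 and 3.11 CPM in the AL rats and at 1.02, 10.5 and 12.8 CPM in HD rats 64, 67 and 69. Ucp2, Mtch1 and Mtch2 had log2 fold changes of -0.36, 0.24 and 0.13, each with an edgeR adjusted *P* above 0.05.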

How the data were processed

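Poly(A)-selected kidney RNA was sequenced as single-end 100 bp reads with an unstranded kit, 1 library per rat. The authors ran RSEM 1.1.15 on transcripts of the UCSC gene definitions (rn5) and deposited, per transcript and rat, estimated counts, posterior means of these and TPM. The aligner is not given in the sources used here. Here, estimated counts were summed per gene symbol and rounded. Genes with at least 30 counts in at least 1 rat were fitted with edgeR 4.0.16 (TMM, glmQLFit and glmQLFTest, two-sided), AL against HD with no covariate, and *P* values were Benjamini-Hochberg adjusted over all 11553 genes. The SE is the size of the log2 fold change divided by the root of F. DESeq2 1.42.0, the tool of the study, was an alternative, as were other scalings, filters, posterior means, limma 3.58.1 on log2(TPM + 0.5) and leaving out each rat. Levels between genes used the deposited TPM. The fit was tested on simulated data. Members and gene lists were chosen with earlier results of these data known. Named with values were the tested citrate, glutamate, glycine and nucleotide carriers, other members with an unadjusted *P* below 0.05, the 5 most abundant members, and genes of the other lists with an unadjusted *P* below 0.05, of which some are not reported here. The 4 low members stayed below 30 counts in every rat and were not tested. The labels do not say more on how the rats were housed, and each rat was treated as independent. The *P* values test the diet difference between 3 and 3 rats against variation between rats, estimated with help from all tested genes.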

Additional observations from a re-analysis of the deposited data

How the results depend on the processing

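No member passed the adjusted threshold in any of the 14 settings, 8 of which changed the processing and 6 of which left out a rat. The number of members with an unadjusted *P* below 0.05 was 5, and it was 3 with RLE normalization, 3 with library size alone and 2 with limma on log2 TPM, and from 1 to 5 when a rat was left out. The members in which the diets did not overlap numbered from 8 to 16 when a rat was left out, since fewer rats then had to be apart. The shares of all tested genes given above hold for the fits with all rats. The shares without a rat are not given here, so these counts cannot be set against them. The median log2 fold change of 0.14 was 0.057 with library size alone and from 0.10 to 0.21 without a rat. Over all settings the sign turned in 14 of the 35 members, in 11 of them when a rat was left out and in 5 under the other settings, Slc25a28 and Slc25a46 among the latter. Of the members given by rat under the naming rule, it reversed with library size alone for Slc25a3 (-0.0030), Slc25a4 (-0.0052) and Slc25a33 (-0.030), with limma on TPM for Slc25a33 (-0.087), without rat 71 for Slc25a33 (-0.18), and without rat 69 for Slc25a22 (-0.049, with 0.20 without rat 64 as its highest) and Slc25a33 (-0.35), and the cause was not tested. No paired analysis was possible because the groups held different rats, which the labels do not pair. Between rats, the common biological coefficient of variation was 0.242, and depth kept the 4 lowest members from being tested.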
